A study of Mus musculus with 7 samples.

Results

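The 34 genes described here encode the machinery that stores, docks, primes and fuses synaptic vesicles at the nerve terminal. They were taken by gene symbol from the deposited count matrices, which list 32285 genes, and each of the 34 symbols matched 1 row. The libraries were single-nucleus RNA libraries from 5xFAD +/- mice, which carry human amyloid transgenes and develop plaques. At 4 months of age each mouse was injected retro-orbitally with an AAV, and tissue was taken at 6 months. The AAV was either ANGPT2 AAV (n = 4) or Control AAV (n = 3). ANGPT2 is angiopoietin-2, which blood vessel cells secrete and which binds TIE2 on them, and the sources used here do not name the promoter or serotype of the vector. The labels give the tissue as subcortex, thalamus and hippocampus, fresh-frozen, and give each library a sex and a batch number. ANGPT2 AAV replicates 1 and 2 were a male and a female of batch 1, and replicates 3 and 4 were a male and a female of batch 2. Control AAV replicates 1 and 2 were a male and a female of batch 1, and replicate 3 was a male of batch 2, so the Control AAV group held 1 female. Every mouse carried the 5xFAD transgenes, and no plaque-free animals are part of the comparison.

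Synaptic vesicles are filled with transmitter, held in clusters by synapsins, tethered at the active zone, primed, and fused with the plasma membrane when calcium enters. Fusion is driven by the SNARE complex of VAMP on the vesicle with syntaxin and SNAP-25 on the plasma membrane, and calcium is sensed by synaptotagmins. Several steps are shared out among paralogs, which are related genes for versions of the same protein, and neuron types are known to use different ones. Fast-spiking interneurons, for example, are known for synaptotagmin-2, and tonically releasing sensory and other ribbon synapses for complexin-3. The questions here are which paralog each neuron type used and whether the genes differed between ANGPT2 AAV and Control AAV mice.

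The profile of Syn1 over the neuron types was most like that of Stx1a (r = 0.86 over 13 types, a description with no test), and that of Syt2 was like those of Vamp1 (r = 0.72) and Cplx1 (r = 0.71). Syt2 was nearly as close to Unc13c (r = 0.71) and Syt4 (r = 0.68). Vamp1 averaged above both oligodendrocytes and microglia in 0 of the 13 types, Cplx1 in 3 and Syt2 in 4, so much of these profiles is at the glial level. The points share libraries and depth. The sequence before the transcription start is printed for Syn1, Stx1a, Syt2, Vamp1 and Cplx1. Syn1 and Stx1a had their highest means in the 4 cortical excitatory types, and Syt2, Vamp1 and Cplx1 in Lhx6 interneurons. RefSeq (GRCm38.p6) gives such a window for 27 of the 34 genes. Each line holds the 250 bases before the start, 5′ to 3′ in the direction of the gene, with the motifs searched for in capitals.
Syn1, chrX:20920919-20921168, minus strand: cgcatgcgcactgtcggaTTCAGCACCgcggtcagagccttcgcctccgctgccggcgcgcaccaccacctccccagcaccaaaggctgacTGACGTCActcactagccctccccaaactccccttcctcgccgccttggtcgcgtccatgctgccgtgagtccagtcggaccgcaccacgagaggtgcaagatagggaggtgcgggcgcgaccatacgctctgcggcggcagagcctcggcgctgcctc
Stx1a, chr5:135023232-135023481, plus strand: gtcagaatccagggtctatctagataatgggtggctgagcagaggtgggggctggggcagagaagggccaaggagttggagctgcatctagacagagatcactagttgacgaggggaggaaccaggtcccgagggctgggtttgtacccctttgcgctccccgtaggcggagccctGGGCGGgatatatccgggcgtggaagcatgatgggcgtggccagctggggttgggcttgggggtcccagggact
Syt2, chr1:134646362-134646611, plus strand: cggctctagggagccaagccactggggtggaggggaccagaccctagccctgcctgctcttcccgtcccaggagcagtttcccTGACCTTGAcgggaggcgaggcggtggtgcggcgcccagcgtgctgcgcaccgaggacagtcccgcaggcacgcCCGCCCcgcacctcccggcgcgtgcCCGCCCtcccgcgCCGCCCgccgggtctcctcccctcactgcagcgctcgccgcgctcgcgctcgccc
Vamp1, chr6:125215331-125215580, plus strand: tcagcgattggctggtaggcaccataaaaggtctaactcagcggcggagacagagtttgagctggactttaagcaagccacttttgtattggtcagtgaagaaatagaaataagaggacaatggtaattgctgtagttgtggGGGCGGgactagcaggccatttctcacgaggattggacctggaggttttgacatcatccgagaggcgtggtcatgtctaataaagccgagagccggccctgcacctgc
Cplx1, chr5:108550028-108550277, minus strand: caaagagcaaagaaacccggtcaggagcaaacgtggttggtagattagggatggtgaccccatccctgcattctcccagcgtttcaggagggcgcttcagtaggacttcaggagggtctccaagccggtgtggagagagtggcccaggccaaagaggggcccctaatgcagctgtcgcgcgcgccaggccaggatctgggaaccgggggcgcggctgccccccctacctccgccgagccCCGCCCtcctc
Motifs were searched on both strands. The left part of the RE1 element, TTCAGCACC, is the site of the repressor REST and was present in 0.301% of 32851 such windows. Among the 27 windows it was found in that of Syn1 alone. The cAMP response element TGACGTCA was present in 1.55% of all windows and also in that of Syn1 alone. The element of the estrogen-related receptors, TNAAGGTCA, was present in 1.14% of all windows and, among the 27, in that of Syt2 alone, on the opposite strand. The GC box GGGCGG was present in 32.7% of all windows and in those of 19 genes, including Stx1a, Syt2, Vamp1 and Cplx1. Syt2 has 2 starts in the table, and the window before 1 of them is shown. A match to these letters is a description of the sequence.

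The libraries held 25466033 to 100529717 UMIs in all (unique molecular identifiers, each counting 1 captured RNA molecule). After the filters, 54230 nuclei were kept, of which 28181 were neurons (3354 to 5314 per library). Of the neurons, 24411 fell into 13 types named from marker genes, so each name means nuclei like that type. No more than 134 barcodes were shared by any pair of libraries, at most 1.54% of the smaller one. The cluster of CA3 neurons was led by Grik4 among others, thalamic neurons by Synpo2 and Prkcd, habenula neurons by Nwd2, medium spiny neurons by Rgs9 and Drd2, and Lhx6 interneurons by Sox6 and Nxph1. None of the CA1 markers was among the 10 leading genes of its cluster, so that name is the weakest. Cortical and striatal names come from markers, and the labels name neither region. The mix of neurons differed between libraries: striatal medium spiny neurons made up 3.74%, 12.6%, 52.9% and 12.7% of the neurons of ANGPT2 AAV replicates 1 to 4, against 0.125%, 2.52% and 26.7% in Control AAV replicates 1 to 3. Values within a type are therefore given beside those over all neurons. ANGPT2 AAV replicate 3 had 0 medial habenula nuclei, and Control AAV replicate 1 had 5 medium spiny nuclei, under the minimum of 10, so these were left out of those types.

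Control AAV replicate 2 stood apart from the other 6 libraries before any comparison. In its dentate granule neurons Bdnf, which neuronal activity induces, reached 1157 CPM (UMIs of a gene per 1000000 UMIs of that type in a library), against 38.3 to 92.9 CPM in the others, and Fos reached 146 CPM, against 0 to 2.86 CPM. Nptx2 and Ptgs2, which activity also induces, reached 191 and 188 CPM there, while their highest values in the other libraries were 5.81 and 15.0 CPM. Its dentate nuclei formed a cluster of their own, with 690 of the cluster's 696 nuclei, and the other dentate cluster, of 1621 nuclei, held 1 nucleus of that library. The results below are given with and without it where they rest on it. In medium spiny neurons 1 of the clusters, led by Cmss1, drew 1012 of its 1431 nuclei from ANGPT2 AAV replicate 3. The cluster counts in this paragraph include called doublets, which were left out of the levels and main tests.

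The levels of the 34 genes were first set against non-neuronal nuclei of the same libraries, since free RNA in the droplets gives every nucleus some neuronal UMIs. The yardstick was the higher of the mean levels in oligodendrocytes and microglia. The middle library's median nucleus had 7889 to 20927.5 UMIs in the 13 neuron types, against 2124 UMIs in oligodendrocytes and 2164 UMIs in microglia. There were 9 genes above the yardstick in all 13 types and in every library: Syn1, Syt1, Unc13a, Rims1, Rims2, Bsn, Pclo, Erc1 and Erc2. For a single library the yardstick was the higher level of its own oligodendrocytes and microglia. Astrocytes are not in the yardstick, and Erc1 averaged 231 ± 12.5 CPM in them (SD, n = 7), so it was above all 3 glial types in 7 of the 13 neuron types. There were 6 genes above it in 0 of the 13 types: Syp, Sv2a, Syt4, Vamp1, Vamp2 and Rab3a. Synaptophysin (Syp), a main protein of the vesicle membrane, averaged 81.9 ± 21 to 137 ± 30 CPM over the neuron types, against 186 ± 32.3 CPM in microglia and 168 ± 40.3 CPM in oligodendrocytes (SD over 6 or 7 libraries). Vamp2, the SNARE of the vesicle in most forebrain neurons, averaged 44.3 to 78.7 CPM in the neuron types, against 166 CPM in microglia and 161 CPM in oligodendrocytes. Levels at or under the yardstick are called background below, which means only that the CPM was no higher than in these glia. The glial nuclei were shallower, so an equal CPM is fewer UMIs per nucleus in them than in neurons. Such a level therefore does not show that a gene was silent in neurons or that its UMIs were free RNA.

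The genes at background were short and the genes above it were long. The 6 at background spanned 3.90 to 30.4 kb, against 47.3 to 856 kb for the 9 above it in every library. Over the 34 genes, length and the ratio of the middle neuron type to the yardstick had a Spearman correlation of 0.77, given as a description over genes that share libraries. The other 19 genes lay above the yardstick in some types or libraries and not in others. The part of gene length and of free RNA in these levels was not tested.

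**Figure D1:**
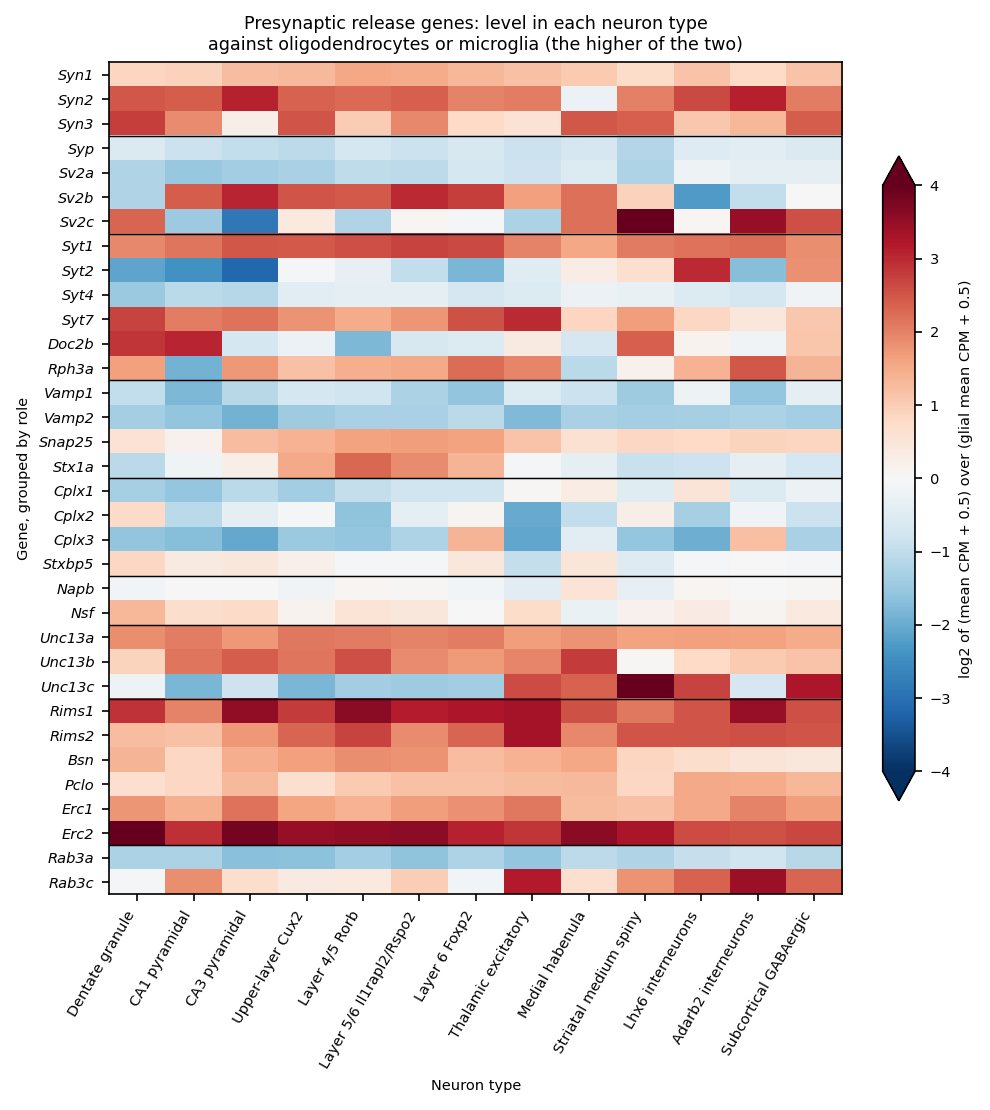
Level of each of the 34 genes (rows, grouped by role) in the 13 neuron types (columns), as log2 of the mean CPM over the higher of the oligodendrocyte and microglial means, with 0.5 CPM added to each. Rims1, Erc2 and Syt1 are red in every column, Syp, Vamp2 and Rab3a are blue in every column, and Sv2c, Syt2 and Unc13c change colour between types.

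The synapsins coat vesicles and hold them in the reserve pool. Syn2 was high in Adarb2 interneurons (lowest library 769, median 857, highest 966 CPM) and in CA3 pyramidal neurons (766, 820 and 911 CPM). In medial habenula neurons Syn2 was at 49.7, 81.1 and 115 CPM over 6 libraries, with a mean of 84.9 CPM, under the 99.2 CPM of microglia and the 94.7 CPM of oligodendrocytes. The habenula libraries did not overlap with those of the Adarb2 or CA3 neurons. Syn3 averaged 404 ± 72 CPM in the habenula and 85.1 ± 26 CPM in CA3 neurons (SD, n = 6 and 7). The log2 ratio of Syn3 to Syn2 was thus highest in the medial habenula, at 2.25 ± 0.62, and lowest in CA3 neurons, at -3.34 ± 0.37. Syn1 varied less, with means of 105 CPM in medium spiny neurons to 185 CPM in Rorb neurons of layer 4/5. Astrocytes also held Syn2 at 358 ± 53.5 CPM (SD, n = 7). Syn1 overlaps Timp1 and Araf, Syn2 overlaps Timp4 and Syn3 overlaps Timp3, each on the opposite strand, and the strand setting of the counting is not given in the sources used here. On the same strand Syn2 overlaps Gm17482, Sv2c overlaps Gm20075 and Syt1 overlaps Gm5136.

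SV2 proteins are transporter-like glycoproteins of the vesicle membrane. Sv2a (chromosome 3, 96181151 to 96195521) was at background everywhere. Its mean still ran from 37.0 CPM in CA1 neurons to 93.2 CPM in Lhx6 interneurons, so the ratios to it move with both genes of a pair. Sv2b (chromosome 7, 75114894 to 75309262) was highest in excitatory types: it ranged from 619 to 1112 CPM in CA3 neurons, with a median of 733 CPM, and from 14.2 to 24.8 CPM in Lhx6 interneurons, with a median of 18.5 CPM. Dentate granule neurons were the exception among excitatory types, with Sv2b at 13.5 to 32.8 CPM in 6 libraries and 160 CPM in Control AAV replicate 2. The inhibitory types were not alike either. The log2 ratio of Sv2b to Sv2a was 1.96 ± 0.33 in medium spiny neurons and 0.19 ± 0.61 in subcortical GABAergic neurons. It was -0.88 ± 0.56 in Adarb2 and -2.30 ± 0.40 in Lhx6 interneurons. Sv2c (chromosome 13, 95954594 to 96132577) was highest in medium spiny neurons, at 315, 402 and 425 CPM (lowest, median and highest of 6 libraries). Adarb2 interneurons followed at 188, 249 and 359 CPM, and the ranges of these types overlapped. In CA3 neurons Sv2c was at 0 to 5.88 CPM, where the library with 0 UMIs, ANGPT2 AAV replicate 4, allows up to 4.46 CPM (3 counts of its total). This and other such limits cover counting error only. The mean log2 ratio of Sv2c to Sv2a ran from 3.09 ± 0.40 in medium spiny neurons to -3.97 ± 1.04 in CA3 neurons, a gap of 7.07.

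Among the calcium sensors, Syt1, the main sensor for fast release in forebrain neurons, was high in every type, with means of 2407 CPM in the medial habenula to 5461 CPM in layer 5/6 neurons. Syt2, a fast sensor known from inhibitory and hindbrain neurons, was at 90.1, 107 and 157 CPM (lowest, median and highest of 7 libraries) in Lhx6 interneurons, the class that holds the Pvalb and Sst cells. In subcortical GABAergic neurons Syt2 was at 18.1, 46.1 and 103 CPM, and in every library it was lower there than in Lhx6 interneurons. In CA3 neurons it was at 0 to 2.65 CPM, against a mean of 14.2 CPM in microglia and 13.7 CPM in oligodendrocytes. Syt2 (chromosome 1, 134646677 to 134762593) overlaps Ppp1r12b on the opposite strand. Syt7, a slower sensor that acts in asynchronous release and facilitation, was highest in thalamic neurons (251, 368 and 423 CPM) and lowest in Adarb2 interneurons, with a mean of 57.8 ± 14 CPM (SD, n = 7). The log2 ratio of Syt7 to Syt1 was highest in thalamic neurons, at -3.28 ± 0.42, and 2.81 lower in Adarb2 interneurons. Doc2b, a high-affinity sensor of spontaneous release, was highest in CA1 neurons (26.0, 37.1 and 59.7 CPM), dentate granule neurons (mean 38.8 CPM) and medium spiny neurons (mean 27.9 CPM), and averaged 1.05 to 11.1 CPM in the other types, against 4.87 CPM in microglia. Rph3a (rabphilin, a Rab3 effector) was at 217, 253 and 292 CPM in Adarb2 interneurons and at 6.50, 8.99 and 25.9 CPM in CA1 neurons, where it was under the 43.8 CPM of oligodendrocytes. Syt4 was at background in every type.

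Of the SNARE genes, Stx1a, which encodes a syntaxin of the plasma membrane, marked the cortical excitatory types. It was at 100, 134 and 154 CPM in Rorb neurons (lowest, median and highest of 7 libraries), and averaged 99.1 ± 22 CPM in layer 5/6 neurons, 75.2 ± 18 CPM in upper-layer Cux2 neurons and 68.5 ± 14 CPM in layer 6 Foxp2 neurons. In the other 9 types Stx1a averaged 12.2 to 30.9 CPM, near the 26.3 CPM of microglia, and dentate granule neurons were lowest with 7.74 to 17.8 CPM. Snap25 averaged 451 CPM in CA1 neurons to 1276 CPM in layer 5/6 neurons, against 397 CPM in microglia. Vamp1 was at background in all types, highest in Lhx6 interneurons at 44.3 ± 6.5 CPM, and it overlaps Tapbpl and Cd27 on the opposite strand. The log2 ratio of Vamp1 to Vamp2 ran from -0.41 ± 0.35 in thalamic neurons to -2.22 ± 0.33 in layer 6 neurons, with both genes under the yardstick.

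Complexins bind the assembled SNARE complex and both clamp and promote fusion. Cplx1 was highest in Lhx6 interneurons (92.7, 107 and 130 CPM) and Cplx2 in dentate granule neurons (109, 174 and 208 CPM). The log2 ratio of Cplx1 to Cplx2 was 2.02 ± 0.80 in thalamic neurons and -2.47 ± 0.54 in dentate granule neurons. Cplx1 averaged above its yardstick of 77.2 CPM in Lhx6, habenula and thalamic neurons, and Cplx2 above its 94.4 CPM in dentate, medium spiny and layer 6 neurons. Cplx3 was low throughout but had its highest values in layer 6 Foxp2 neurons (3.54, 5.61 and 8.77 CPM) and Adarb2 interneurons (2.48, 5.69 and 8.03 CPM), against 2.00 CPM in microglia and under 1.5 CPM on average in the other 11 types. Stxbp5 (tomosyn), an inhibitor of SNARE assembly, was highest in dentate granule neurons at 415, 468 and 554 CPM and lowest in thalamic neurons, with a mean of 136 ± 14 CPM. Nsf, the ATPase that takes SNARE complexes apart, was also highest in dentate granule neurons, at 470, 606 and 658 CPM. Its cofactor Napb averaged 107 ± 38.9 CPM in the medial habenula (SD, n = 6) and 54.3 to 76.2 CPM in the other types, against 72.3 CPM in oligodendrocytes.

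Munc13 proteins prime docked vesicles. Unc13a was even over the types, averaging 105 to 159 CPM. Unc13b was highest in the medial habenula (210, 258 and 345 CPM over 6 libraries) and lowest in medium spiny neurons (29.0, 40.4 and 52.3 CPM). Unc13c (chromosome 9, 73479422 to 73968966), best known from cerebellar granule cells, was at 435, 489 and 640 CPM in medium spiny neurons and at 1.86, 5.91 and 18.5 CPM in CA1 neurons. Subcortical GABAergic, Lhx6, thalamic and habenula neurons averaged 279, 192, 180 and 152 CPM of Unc13c, and the other 8 types 7.80 to 25.3 CPM, under the 29.0 CPM of microglia. Astrocytes held Unc13c too, at 170, 328 and 713 CPM over 7 libraries. The log2 ratio of Unc13c to Unc13a was 2.16 ± 0.17 in medium spiny neurons and -4.43 ± 0.78 in CA1 neurons.

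The active zone scaffold genes were above the yardstick in every type. Rims2, a RIM protein that recruits vesicles and calcium channels, was highest in thalamic neurons at 2066, 2185 and 2287 CPM and lowest in CA1 neurons at 365, 508 and 551 CPM. The log2 ratio of Rims2 to Rims1 was highest in medium spiny neurons, at 0.38 ± 0.06, and lowest in CA3 neurons, at -1.83 ± 0.23. Piccolo (Pclo) and Bassoon (Bsn) are giant scaffold proteins, and their log2 ratio was 2.96 ± 0.17 in Adarb2 interneurons and 1.00 ± 0.18 in upper-layer Cux2 neurons. Bsn averaged 109 to 130 CPM in the interneuron and subcortical GABAergic types, against 142 to 289 CPM in the other types. Erc2, an ELKS scaffold, was highest in dentate granule neurons (3218, 3448 and 4635 CPM) and averaged 1363 ± 98.8 CPM in Adarb2 interneurons. Rab3 GTPases on the vesicle bind RIM proteins. Rab3c was at 785, 919 and 1023 CPM in Adarb2 interneurons and at 631, 808 and 879 CPM in thalamic neurons, against 69.6, 73.7 and 99.3 CPM in layer 6 neurons, where it was under the 86.3 CPM of microglia.

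For each of the 16 paralog pairs, the types with the highest and the lowest mean ratio were picked from these same libraries. Those types did not overlap between libraries, and the order was the same in every library that held both. The way of picking favours this outcome, so it is no independent check. Some extremes also rest on few UMIs: Cplx3 had 6 UMIs in dentate granule neurons over 7 libraries, so the amount added to each count weighs on that ratio. The smallest gap in any library was 0.56 on the log2 scale, for Syt4 to Syt1. No test was made, since the types were cut from the same nuclei, and the 34 genes were left out of the genes used for clustering. A ratio is compared between types only, where gene length cancels. In 9 of the pairs at least 1 gene averaged above the yardstick in no more than 5 of the 13 types: Sv2b and Sv2c to Sv2a, Syt2 and Syt4 to Syt1, Vamp1 to Vamp2, both complexin pairs, Unc13c to Unc13a and Rab3c to Rab3a.

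**Figure D2:**
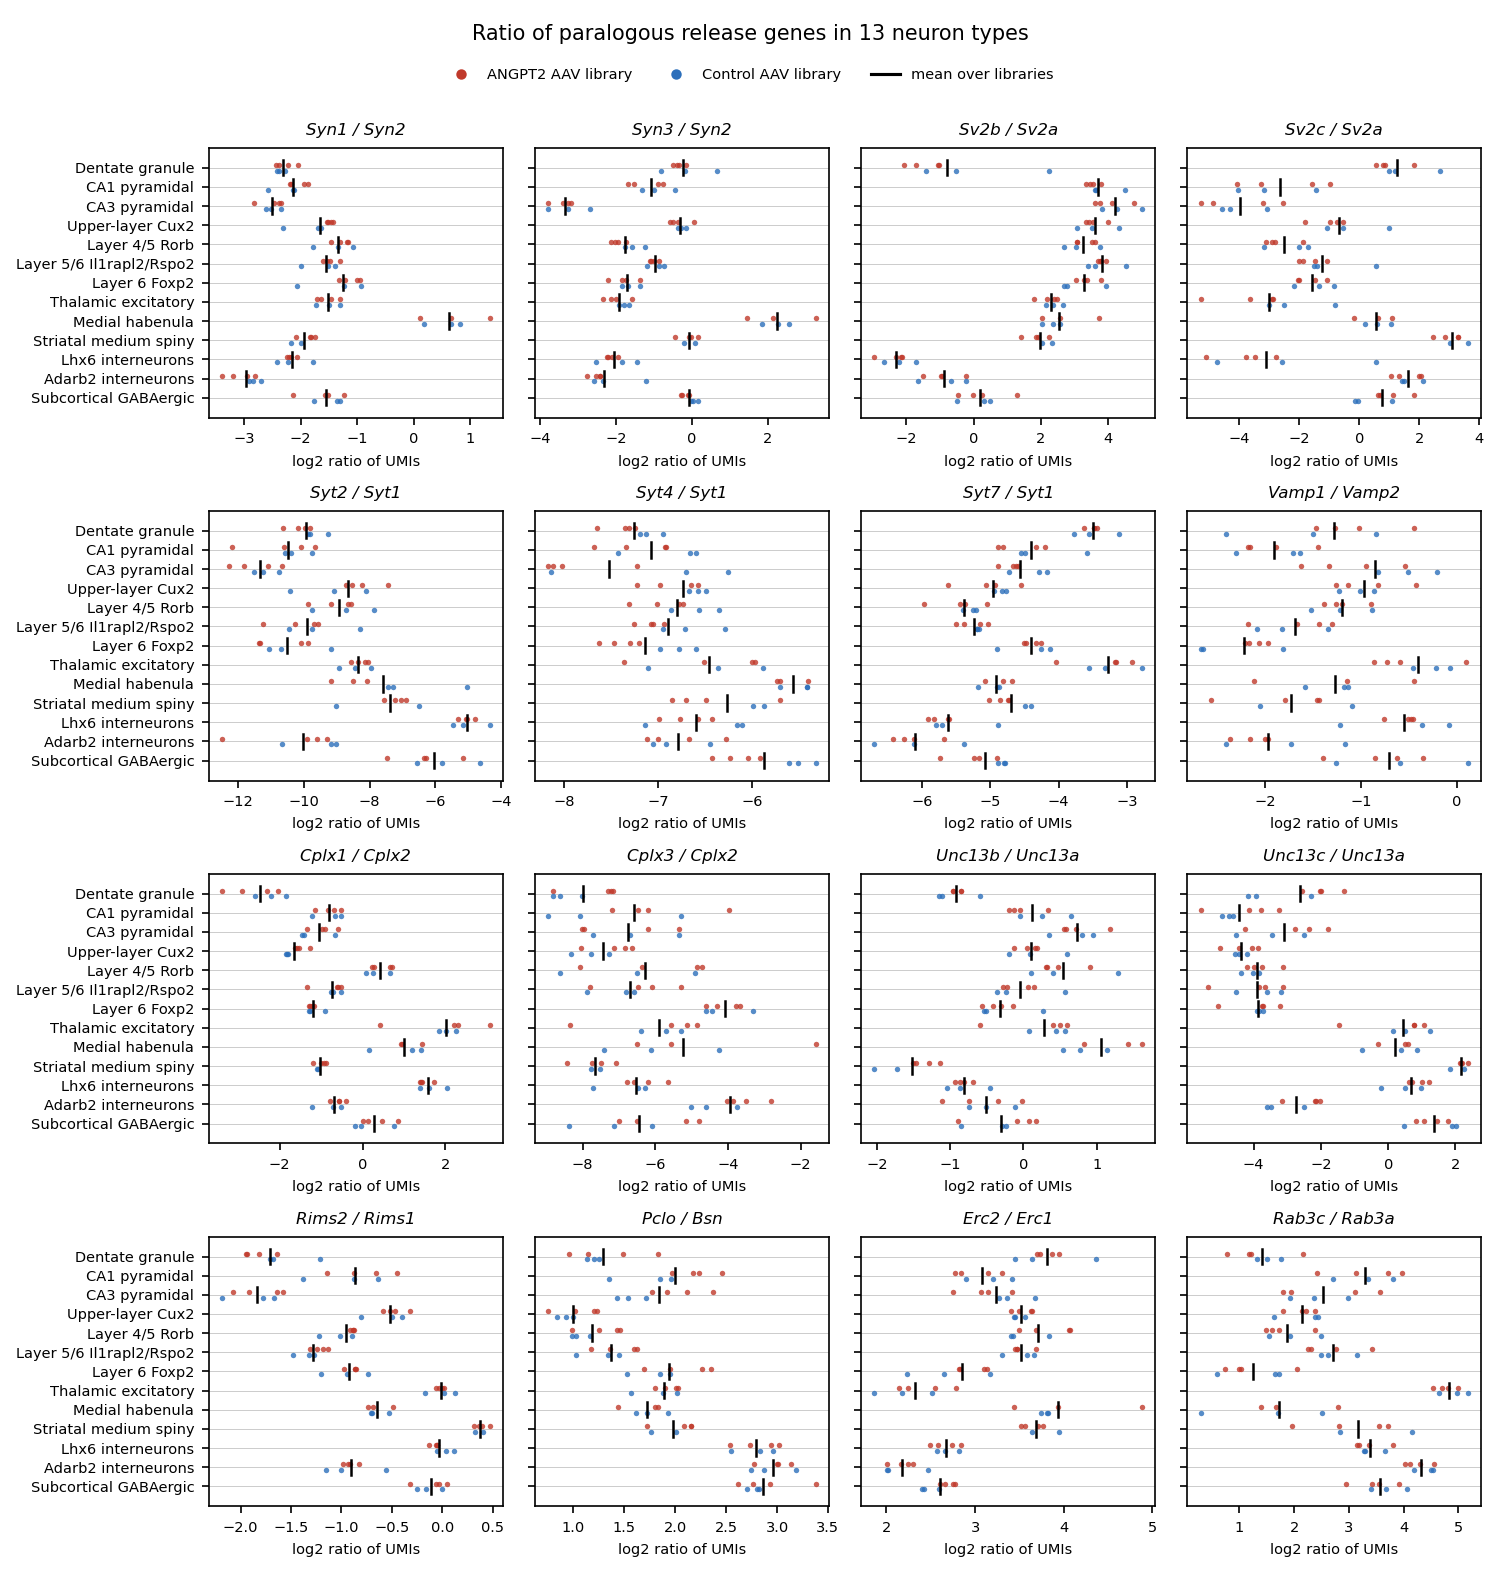
Log2 ratio of the UMIs of 16 paralog pairs (horizontal axes, each with its own range, 0.5 UMI added to each count) in 13 neuron types. Dots are libraries of ANGPT2 AAV mice (red) and Control AAV mice (blue), and bars are means over libraries. Sv2c to Sv2a ran from a mean of 3.09 in medium spiny neurons to -3.97 in CA3 neurons, and the colours mix within most types.

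None of the 34 genes was called different between ANGPT2 AAV and Control AAV mice over all neurons, and 0 of the 18579 genes tested were (0.0%; edgeR's quasi-likelihood test on UMIs summed per library, Benjamini-Hochberg adjusted p under 0.05). DESeq2 called 0 of the 34, and its count over all genes is given in the closing section. At an unadjusted p under 0.05, edgeR gave 1 of the 34, Rims2, beside 2.86% of all genes. With the batch as a block its unadjusted p with edgeR was 0.0577, and without Control AAV replicate 2 it was 0.0657. The log2 changes of the 34 lay between -0.37 and 0.53, with standard errors of 0.08 to 0.46, so small differences were not detectable with 7 mice. Of the 34, 21 were higher in ANGPT2 AAV mice, with a median log2 change of 0.04, against 44.9% of all genes and a median of -0.03. The p-values measure the spread between these 7 libraries, and over all neurons a different mix of types and a different level per nucleus cannot be told apart.

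Rims2 (chromosome 15, 39198261 to 39684372) was at 1214, 1182, 1227 and 1246 CPM in ANGPT2 AAV replicates 1 to 4, against 1093, 979 and 1113 CPM in Control AAV replicates 1 to 3. The groups did not overlap. Its log2 change was 0.29 (SE 0.13, unadjusted p = 0.0456 and adjusted p = 0.984 with edgeR), and the difference in mean log2 CPM was 0.21 in batch 1 and 0.15 in batch 2. Syt1 was at 4184, 4245, 4487 and 4438 CPM in ANGPT2 AAV mice, against 3910, 3655 and 3998 CPM in Control AAV mice. These groups did not overlap either, and the log2 change was 0.26 (SE 0.15, adjusted p = 0.984 with edgeR). Rims2 and Syt1 were the only members of the 34 whose groups did not overlap, beside 4.3% of 18106 genes (0.817% higher and 3.49% lower in ANGPT2 AAV mice). Pclo was at 696, 655, 693 and 705 CPM in ANGPT2 AAV mice and at 674, 607 and 646 CPM in Control AAV mice, with overlap (log2 change 0.19, SE 0.12). Rph3a was at 142, 142, 94.8 and 114 CPM in ANGPT2 AAV mice and at 116, 99.8 and 123 CPM in Control AAV mice. Its log2 change with edgeR was 0.21 (SE 0.13), and the difference in mean log2 CPM was 0.40 in batch 1 and -0.24 in batch 2. Cplx3 rested on 13 to 77 UMIs per library, with 0.861, 1.58, 0.699 and 1.04 CPM in ANGPT2 AAV mice and 0.662, 0.960 and 0.641 CPM in Control AAV mice (log2 change 0.53, SE 0.34, or 0.83 without Control AAV replicate 2). Syn3 was at 215, 220, 260 and 230 CPM in ANGPT2 AAV mice and at 214, 442 and 282 CPM in Control AAV mice. Its log2 change of -0.37 (SE 0.26) became 0.057 without Control AAV replicate 2, which held the value of 442 CPM.

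**Figure D3:**
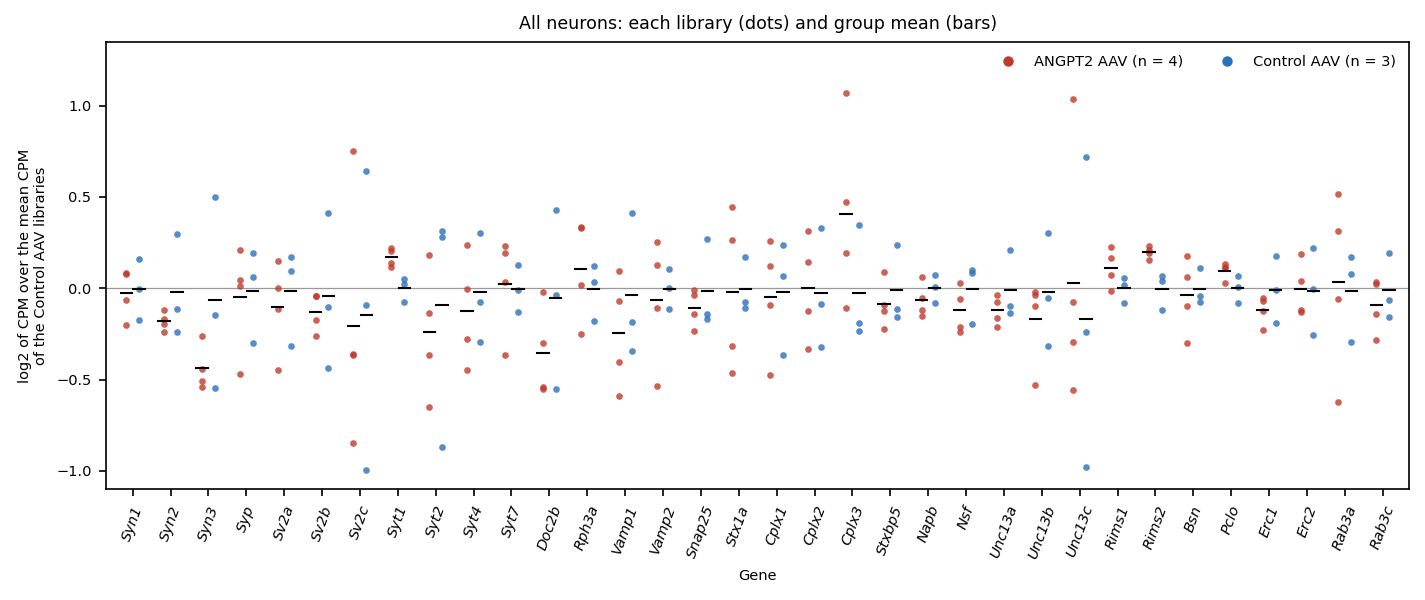
Level of each gene over all neurons in every library, as log2 of its CPM over the mean CPM of the Control AAV libraries (vertical axis), with ANGPT2 AAV mice (red, n = 4) left of Control AAV mice (blue, n = 3) and bars for the mean log2 value of a group. The groups overlap for all genes but Rims2 and Syt1, and the highest blue point of Syn3 is Control AAV replicate 2 at 442 CPM.

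Among long genes, a larger share had a log2 change above 0 than among the other genes. Of 596 tested genes over 300 kb, 455 had a log2 change above 0 over all neurons (76.3%, median 0.14), against 43.8% of the other genes (median -0.03). The 34 genes include 7 of that length: Syn3, Syt1, Unc13c, Rims1, Rims2, Pclo and Erc2. Of these, 6 had a log2 change above 0, with a median of 0.20, and of the 27 shorter genes 15 did, with a median of 0.003. The genes over 300 kb held 42.8%, 41.0%, 45.0% and 46.2% of the neuronal UMIs in ANGPT2 AAV replicates 1 to 4, against 40.9%, 42.1% and 41.1% in Control AAV replicates 1 to 3. Within batch 1 the shares of the groups overlapped, and in batch 2 both ANGPT2 AAV libraries lay above the Control AAV library. Batch 2 was also the shallower, at 25466033 to 32526932 UMIs per library, against 65676959 to 100529717 UMIs in batch 1. The part of gene length and of batch in the values of Rims2, Syt1 and Pclo was not tested.

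Within the neuron types the count of calls was the same. In excitatory neurons 0 of the 34 genes were called, beside 0 of 17956 genes (0.0%), and 2 had an unadjusted p under 0.05, beside 4.39%. In inhibitory neurons 0 of the 34 were called, beside 0 of 14950 genes (0.0%), and 0 had an unadjusted p under 0.05, beside 3.22%. In the 13 types, 30 to 34 of the genes passed the filter on low counts, which made 418 tests in all. With edgeR 0 of these passed (0.0% of all genes in each type), the smallest adjusted p being 0.748. DESeq2 called 0 too, and its share over all genes in each type is not given here. An unadjusted p under 0.05 was found in 15 tests, or 3.59%, beside 4.41% of 142084 tests over all genes. The groups did not overlap in 15 of 442 gene and type combinations, beside 5.97% of combinations over all genes. The share over all genes counts those with at least 70 UMIs in a type, a minimum that was not set for the 34 genes.

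**Figure D4:**
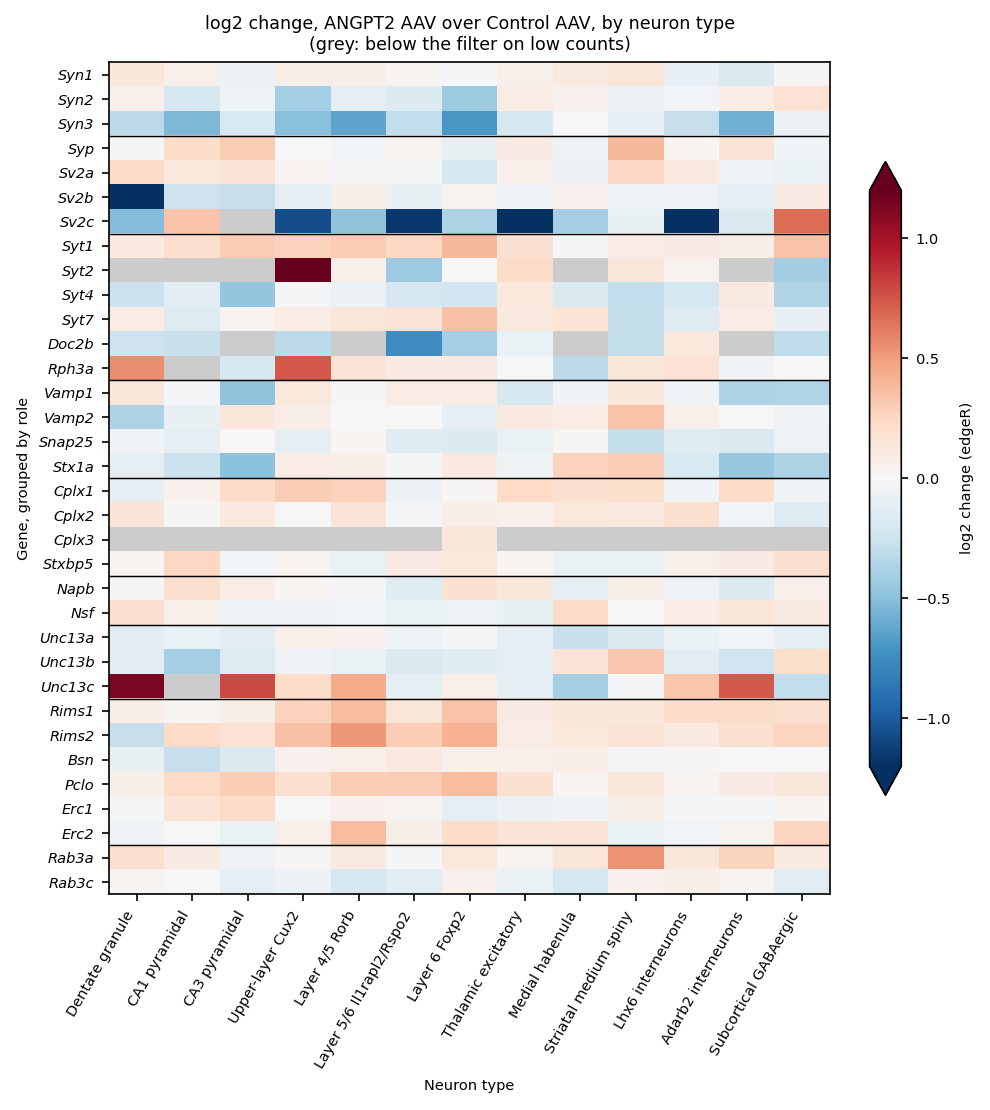
Log2 change of ANGPT2 AAV over Control AAV mice (edgeR) for each gene in each neuron type, with genes below the filter on low counts in grey. Rims1 and Pclo are above 0 in all 13 columns, and the darkest blue cells, Sv2b in dentate granule neurons and Sv2c in Lhx6, thalamic and deep-layer neurons, rest on Control AAV replicate 2.

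Several genes kept 1 direction over most types without passing a test. Rims1 and Pclo had a log2 change above 0 in 13 of 13 types, with medians of 0.15 and 0.18, and Rims2 and Syt1 in 12 of 13, each with a median of 0.20. Without Control AAV replicate 2, Rims1, Rims2, Pclo, Syt1 and Erc2 were above 0 in all 13. These are genes over 300 kb, and of all genes of that length 56.6% to 83.5% were above 0 in each of the 13 types, with medians of 0.03 to 0.24. The types share mice, so their directions are not independent. Syn3 was below 0 in 12 of 13 types, but above 0 in 8 of 13 without Control AAV replicate 2. Sv2c was below 0 in 10 of 12 types, and in 6 of 12 without that library. Unc13a was below 0 in 11 of 13 types with that library and also in 11 of 13 without it, with medians of -0.08 in both. Syt4 was below 0 in 11 of 13 types, and in 8 of 13 without that library. Doc2b was below 0 in 8 of 9 types, and in 6 of 8 without that library.

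The member with the smallest unadjusted p in each type is given here. In upper-layer Cux2 neurons it was Rph3a, at 101, 112, 109 and 142 CPM in ANGPT2 AAV mice and at 79.7, 46.9 and 106 CPM in Control AAV mice. The groups overlapped, and the log2 change was 0.73 (SE 0.24, adjusted p = 0.748 with edgeR), or 0.49 without Control AAV replicate 2. Rims2 was the leading gene in Rorb neurons, at 1415, 1334, 1741 and 1706 CPM in ANGPT2 AAV mice and 1292, 1002 and 1347 CPM in Control AAV mice. The lowest ANGPT2 AAV value lay just under the highest Control AAV value, and the log2 change was 0.52 (SE 0.20, adjusted p = 0.818 with edgeR). Rims2 also led in layer 6 neurons, at 1138, 1062, 1214 and 1312 CPM in ANGPT2 AAV mice and 1071, 821 and 976 CPM in Control AAV mice, with a log2 change of 0.42 (SE 0.17). In CA3 neurons Vamp1 did not overlap, at 19.1, 22.9, 17.6 and 22.3 CPM in ANGPT2 AAV mice and 31.8, 27.7 and 23.8 CPM in Control AAV mice, on 6 to 221 UMIs and below the glial level (log2 change -0.48, SE 0.23). In CA1 neurons Unc13b was at 136, 157, 128 and 165 CPM in ANGPT2 AAV mice and 145, 230 and 236 CPM in Control AAV mice, with a log2 change of -0.41 (SE 0.20), or -0.19 without Control AAV replicate 2. In medium spiny neurons Syp was at 89.0, 84.0, 115 and 66.2 CPM in ANGPT2 AAV mice and 54.5 and 83.3 CPM in Control AAV replicates 2 and 3, under the glial level (log2 change 0.39, SE 0.22, or 0.20 without Control AAV replicate 2).

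Sv2c was the leading gene in 5 types. In Lhx6 interneurons it was at 5.63, 2.76, 16.1 and 7.77 CPM in ANGPT2 AAV mice and at 3.71, 120 and 14.4 CPM in Control AAV mice. The log2 change of -2.85 (SE 0.92, adjusted p = 0.961 with edgeR) was 0.11 without Control AAV replicate 2, which held the 120 CPM. In layer 5/6 neurons Sv2c was at 13.6, 12.9, 17.9 and 22.5 CPM in ANGPT2 AAV mice and 22.8, 63.1 and 19.8 CPM in Control AAV mice, with a log2 change of -1.16 (SE 0.41), or -0.30 without that library. In thalamic neurons it was at 7.27, 8.21, 0 and 3.61 CPM in ANGPT2 AAV mice and 7.32, 27.1 and 11.2 CPM in Control AAV mice, with a log2 change of -1.23 (SE 0.46), or -0.25 without that library. ANGPT2 AAV replicate 3 had 0 Sv2c UMIs in its 25 thalamic nuclei, which allows up to 13.5 CPM. The direction was the other way in subcortical GABAergic neurons, where Sv2c was at 118, 194, 152 and 186 CPM in ANGPT2 AAV mice and at 77.9, 162 and 97.0 CPM in Control AAV mice. The groups overlapped there, and the log2 change was 0.67 (SE 0.26, adjusted p = 0.908 with edgeR), or 1.04 without Control AAV replicate 2. In medial habenula neurons Sv2c was at 115, 79.1 and 74.5 CPM in ANGPT2 AAV replicates 1, 2 and 4 and at 115, 153 and 115 CPM in Control AAV mice (log2 change -0.40, SE 0.22, or -0.21 without Control AAV replicate 2), and the groups did not overlap.

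Sv2b led in dentate granule neurons, at 21.0, 18.7, 13.5 and 16.9 CPM in ANGPT2 AAV mice and 17.6, 160 and 32.8 CPM in Control AAV mice. The log2 change of -2.07 (SE 0.70, adjusted p = 0.862 with edgeR) was -0.12 without Control AAV replicate 2. Syn3 led in Adarb2 interneurons, at 167, 160, 142 and 133 CPM in ANGPT2 AAV mice and 181, 363 and 134 CPM in Control AAV mice, with a log2 change of -0.58 (SE 0.25), or -0.02 without that library. The high value of each gene is that of Control AAV replicate 2, whose dentate nuclei also formed their own cluster.

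The values of Control AAV replicate 2 were then set against all other libraries, for values where the UMIs observed, or those expected at the median of the other libraries, were at least 30. Of its 408 gene and type values, 16 were at least 1.5-fold above the highest of all other libraries and 6 at least 1.5-fold below the lowest. In the other 6 libraries 0 to 5 values lay that far out in sum. Over all genes 2.87% of its values were that much higher and 2.63% that much lower, so the 34 genes were near the rest of the genome in that library. Syn3 was the most frequent, in 7 types: in dentate granule neurons it was at 859 CPM in that library, against 326 to 544 CPM in the others, and in Rorb neurons at 308 CPM, against 101 to 132 CPM. Syn2 was higher in upper-layer Cux2 neurons (886 CPM, against 410 to 464 CPM), Rorb neurons (733 CPM, against 375 to 460 CPM) and layer 6 neurons (730 CPM, against 300.2 to 400.4 CPM). Rph3a was lower in its dentate granule neurons, at 39.5 CPM against 122 to 175 CPM, and Syt7 in its layer 6 neurons, at 121 CPM against 219 to 333 CPM. The part of the high activity-induced genes in these values was not tested.

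**Figure D5:**
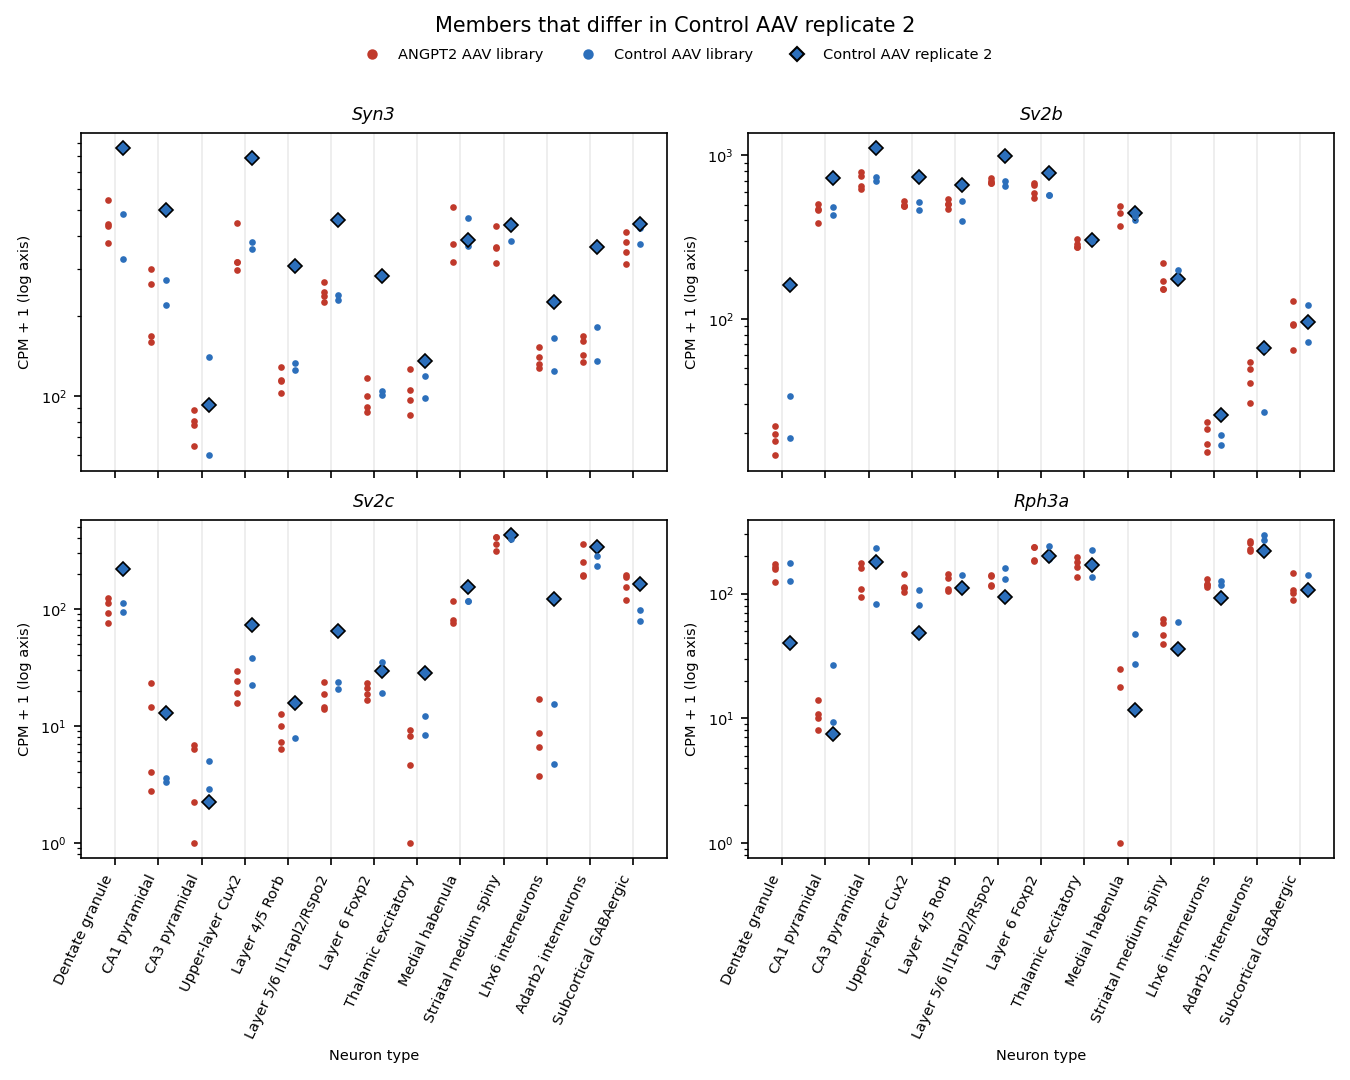
Syn3, Sv2b, Sv2c and Rph3a in each neuron type, as CPM + 1 on a log axis, with ANGPT2 AAV libraries (red) left of Control AAV libraries (blue) and Control AAV replicate 2 as a diamond. The diamond is the highest point for Syn3 in dentate granule neurons at 859 CPM and for Sv2c in Lhx6 interneurons at 120 CPM, and the lowest for Rph3a in dentate granule neurons at 39.5 CPM.

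The effect of treatment was also compared between females and males. Over all neurons 0 of the 34 genes passed for this difference with edgeR, beside 1 of 18579 genes (0.00538%), and 2 of the 34 had an unadjusted p under 0.05, beside 3.61% of all genes. These were Syn3, whose log2 change in males exceeded that in females by 1.10 (SE 0.34, adjusted p = 1.00 with edgeR), and Syn2, where it did so by 0.73 (SE 0.28). DESeq2 called 0 of the 34 for this difference, and its count over all genes is given in the closing section. Control AAV replicate 2 was the only Control AAV female, and Syn2 was at 487, 447, 470 and 462 CPM in ANGPT2 AAV mice and at 488, 650 and 448 CPM in Control AAV mice. The sex of the controls and that library cannot be told apart.

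The paralog ratios were set against treatment as well, a comparison chosen after the data had been seen. Over 208 pair and type combinations the median absolute difference was 0.19 on the log2 scale. A difference over 1 was found in 8 combinations, and in 10 without Control AAV replicate 2. The largest was that of Syt2 to Syt1 in medial habenula neurons, at -8.59 ± 0.54 in ANGPT2 AAV mice and -6.58 ± 1.34 in Control AAV mice (SD, n = 3 each), where Syt2 averaged 17.7 CPM, against 14.2 CPM in microglia. This difference of -2.01 was -2.36 without Control AAV replicate 2. It rested on 62 Syt2 UMIs over 6 libraries, and ANGPT2 AAV replicate 4 had 0 Syt2 UMIs there, which allows up to 24.8 CPM. Sv2c to Sv2a in thalamic neurons followed, at -3.68 ± 1.13 in ANGPT2 AAV mice and -2.11 ± 1.15 in Control AAV mice, with overlap, and this difference of -1.57 was -0.92 without Control AAV replicate 2. Sv2b to Sv2a in dentate granule neurons was at -1.46 ± 0.51 in ANGPT2 AAV mice and 0.10 ± 1.91 in Control AAV mice, and this difference of -1.56 was -0.49 without Control AAV replicate 2. An exact permutation test of 4 against 3 libraries cannot give a two-sided p under 0.0571, so no ratio was tested.

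A further 71 presynaptic genes, from SNARE proteins and synaptotagmins to calcium channels and recycling proteins, were tested as well. Of these, 70 were tested over all neurons and 0 were called with edgeR, beside 0.0% of all genes. DESeq2 called 0 of them too. With edgeR 2 had an unadjusted p under 0.05, beside 2.86% of all genes. There were 30 of 70 with a log2 change above 0, and their median was -0.01, against 44.9% and -0.03 over all genes. Of the 13 SNARE genes 4 were above 0, of the 11 synaptotagmins and Doc2 relatives 3, of the 11 vesicle protein genes 4, of the 17 active zone and priming genes 11 were above 0, of the 7 calcium channel genes 5, and of the 11 recycling genes 3. Cadps2, a priming factor of dense-core vesicles, was at 395, 396, 400.2 and 475 CPM in ANGPT2 AAV mice and 362, 245 and 350 CPM in Control AAV mice. The groups did not overlap, and edgeR gave 0.49 on the log2 scale (SE 0.16, adjusted p = 0.984), or 0.38 without Control AAV replicate 2. Lin7a, a scaffold that binds CASK, was at 194, 201, 188 and 196 CPM in ANGPT2 AAV mice and 177, 159 and 186 CPM in Control AAV mice (log2 change 0.25, SE 0.10). Cacnb4, a calcium channel subunit, was at 767, 834, 815 and 791 CPM in ANGPT2 AAV mice and 662, 707 and 774 CPM in Control AAV mice (log2 change 0.26, SE 0.12).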

How the data were processed

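The deposited counts are unnormalized UMIs for every gene in every barcode, which the authors made with Cell Ranger 6.1.2 on mm10 (GRCm38), per the submitters' processing notes; the strand setting is not given in the sources used here. The 34 genes, the other presynaptic lists and the tests were chosen with earlier results of these data known, and the thresholds for naming clusters were set after seeing the data. Of 58286 barcodes, 58169 had at least 300 genes and under 5% mitochondrial UMIs, and 3939 doublets, called per library against simulated ones, were removed after clustering. Nuclei were clustered with scanpy 1.11.5 (2500 variable genes without the presynaptic genes, Leiden resolution 1, 42 clusters) and named from marker lists; a name needed at least 3 detected markers. CPM is UMIs per 1000000 UMIs of that type in a library. UMIs were summed per library and type (at least 10 nuclei) and tested with edgeR 4.0.16 in R 4.3.3 (quasi-likelihood test, TMM, filterByExpr with a minimum count of 10 and a minimum total of 15, treatment as the only term, Benjamini-Hochberg over all genes, threshold 0.05), with DESeq2 1.42.0 as an alternative. All 7 libraries entered the fit over all neurons. The depth, 25466033 to 100529717 UMIs per library, and the number of mice set the precision. Named per library are the 6 members with the smallest p over all neurons, the member with the smallest p in each type, and the 3 other presynaptic genes with the smallest p. Gene positions are from GENCODE release M21. The batch number of the labels pairs libraries: deviations from the group mean correlated at 0.02 to 0.60 (median 0.16) for pairs of the same batch and at -0.55 to 0.11 (median -0.28) for the others. Alternatives were the replicate block, sex, size factors, filters, doublets, clustering, the pseudocount and leaving out each library. The scripts were tested on simulated data.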

Additional observations from a re-analysis of the deposited data

How the results depend on the processing

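The 43 results were recomputed under alternatives, which gave 609 values, of which 597 kept their direction and side of the threshold, or moved by less than the spread between libraries. With the batch number as a replicate block, 0 members were called over all neurons, in excitatory and inhibitory neurons and in each type, and 0 for the difference between the sexes, so the pairing changed no call. DESeq2 called 2 genes over all neurons and 71 for the difference between the sexes, where edgeR called 0 and 1, and 0 of the 34 members in each. With no filter on low counts, 4 calls of a member in a type were made. Among them were those of Sv2c in layer 5/6 neurons (-1.18), Lhx6 interneurons (-2.86) and subcortical GABAergic neurons (0.64). With the filter, but without Control AAV replicate 2, these Sv2c changes were -0.30, 0.11 and 1.04. The share of all genes called with no filter is not given here, so the 4 calls have no background. The cause was not tested. Leaving out Control AAV replicate 2 turned the direction of Syn3 over all neurons (range over left-out libraries -0.60 to 0.057) and of Sv2c in Lhx6 interneurons (-3.48 to 0.11). Of the paralog gaps on the log2 scale, keeping called doublets moved those of Syn1 to Syn2 (2.85), Syn3 to Syn2 (4.63), Sv2b to Sv2a (5.71) and Unc13b to Unc13a (2.35). Resolution 2 moved that of Unc13b to Unc13a (2.26), and a pseudocount of 0.1 that of Syt2 to Syt1 (7.17); the cause was not tested. Of 192 recomputed gaps 10 had another highest or lowest type. Low genes such as Cplx3, which rested on few UMIs, and the 7 mice limit what could be detected.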
